A study of Mus musculus with 16 samples.

Results

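Bone morphogenetic protein (BMP) signalling and its best known readout, the Id genes, were followed as 10 genes: Id1, Id2, Id3, Id4, Bmp4, Bmp7, Bmpr1a, Smad6, Smad7 and Hes1. They were found by symbol among the 16250 gene symbols listed in any library, and 13396 symbols were listed in all 16 libraries. The set was selected on measured values, namely FPKM between tissues and between housing groups in earlier results of these data, so the values of the 10 genes are a description and no p-value is given for them. Where it is said which of them passed the threshold of a fit across all genes, this describes their place among all genes and supports nothing. All 10 genes were listed in 12 libraries, and 9 in the other 4, where Smad6 was not listed.

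The libraries came from cortex or hippocampus of mouse fetal brain (genotype WT, embryonic day 18.5). The fetuses belonged to an enriched environment group (EE) or to a standard habitation group (SH), and the series title calls the exposure prenatal. Cortex gave 5 EE and 5 SH libraries and hippocampus gave 3 EE and 3 SH libraries. The labels name neither dams, litters nor fetuses, so replicates may share a litter or be pools, and every error and p-value measures the spread between libraries only. The replicates fell into 3 blocks by the length of their gene lists: cortex replicates 1 to 3 (15996 genes), hippocampus (15247) and cortex replicates 4 and 5 (13448). Comparisons were made within these blocks, between the first pair of them for the tissues, or across both cortex blocks where all 5 replicates are named. Levels are FPKM as the authors computed them for each library, that is, fragment counts corrected for transcript length and for the library's size.

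In the pathway, secreted ligands such as Bmp4 and Bmp7 bind receptor pairs that include the type I receptor Bmpr1a, and the receptors phosphorylate Smad1, Smad5 and Smad9, which enter the nucleus with Smad4. There they switch on Id1, Id2 and Id3 and also the inhibitory Smads, Smad6 and Smad7, which dampen the pathway. Id proteins lack a DNA-binding domain and hold back E proteins and the proneural factors that pair with them. Hes1, a repressor best known as a Notch target, likewise keeps neural progenitors from differentiating. In the developing forebrain, BMPs come from the dorsal midline, the choroid plexus and the meninges, and the midline source lies next to the hippocampal primordium.

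Some libraries stood apart before any comparison. Ttr, the transthyretin transcript that choroid plexus makes in large amounts, reached 4989 FPKM in hippocampus EE replicate 1, 10300 in EE replicate 2 and 16656 in SH replicate 1, against 33.6 to 143.9 in the other 3 hippocampal libraries. Cortex SH replicate 3 had a summed FPKM of 511438 where the other 15 libraries had 339726 to 396658. In that library the deviation of genes from their block mean had a Spearman correlation of -0.76 with transcript length. Between tissues, markers followed the labels: 5 of 5 hippocampal markers were higher in hippocampus and 3 of 4 neocortical markers were lower there (limma, adjusted p of 0.05 or less), and no marker of any list was at 0 in every library. Among hippocampal libraries, the summed hippocampal markers were 18.8 FPKM in EE replicate 3 and 34.1 to 51.3 in the others. All 5 had a negative difference of EE minus SH there, with a median of -0.26, and none passed. The part of this in the differences between housing groups was not tested. Whole reads recovered from the FPKM steps numbered 11598950 to 20809499 per library. Across libraries Id2 had 2363 to 4976 of them, Id1 90 to 1038, Smad6 36 to 177 and Bmp4 12 to 303, so the counting error was widest for Bmp4 and Smad6.

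**Figure D1:**
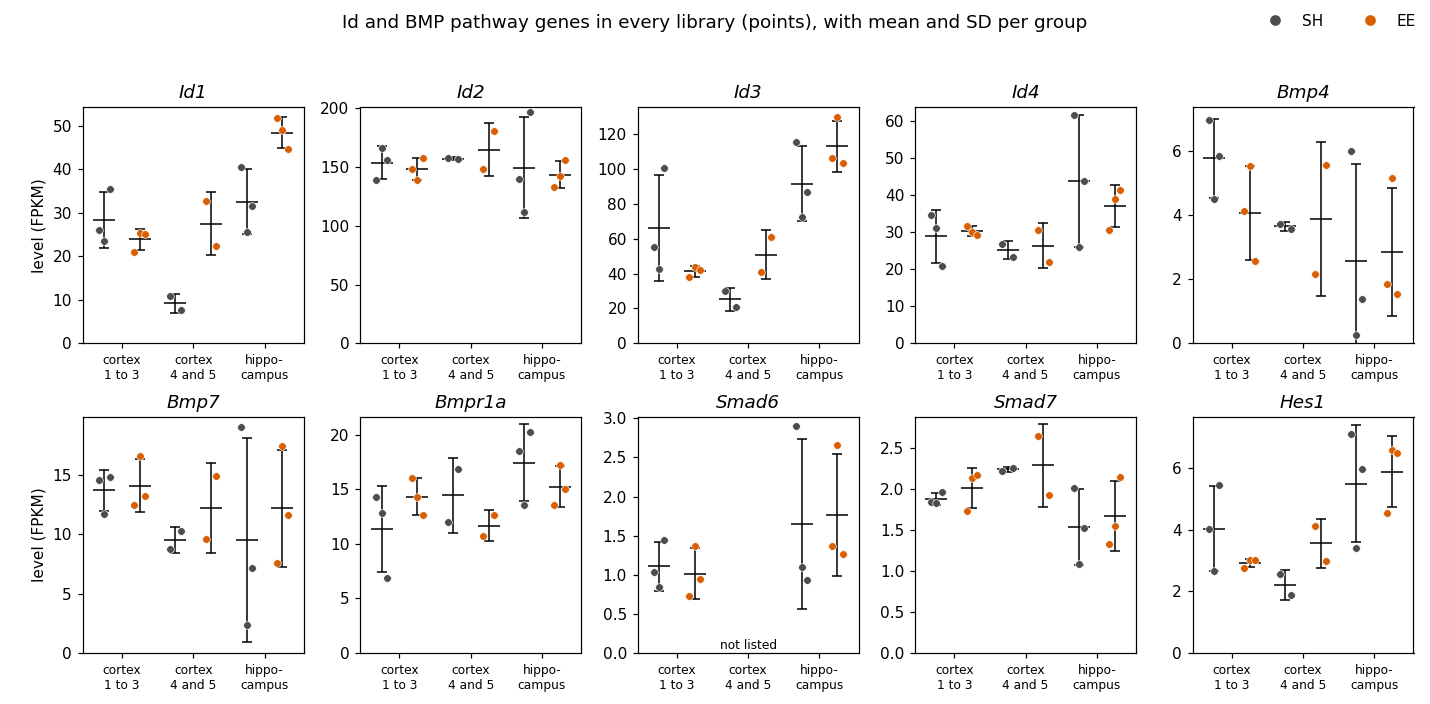
Level of the 10 genes in every library, in FPKM on the vertical axis, by block and housing group (grey SH, orange EE). Points are libraries, horizontal ticks are group means and whiskers are SDs, drawn from 0 upward. The 3 hippocampus EE libraries of Id1 lie between 44.6 and 51.8 FPKM, above all 3 SH libraries, and the 2 EE libraries of cortex replicates 4 and 5 lie above the 2 SH libraries.

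Id1 lies on chromosome 2 (mm10, 152736251 to 152737410, plus strand) and is one of the most direct BMP targets. In hippocampus it measured 51.8, 49.0 and 44.6 FPKM in EE and 40.5, 25.7 and 31.5 in SH, so the groups did not overlap. Mean levels were 48.4 ± 3.59 FPKM in EE and 32.6 ± 7.48 in SH (SD, n = 3 each), and the fitted log2 difference was 0.58 ± 0.16 (SE). Its cortex replicates 1 to 3 measured 21.01, 25.4 and 25.2 FPKM in EE and 26.0, 23.4 and 35.5 in SH. These groups overlapped, and the difference was -0.22 ± 0.17 on the log2 scale. Cortex replicates 4 and 5 measured 32.6 and 22.4 FPKM in EE and 10.8 and 7.64 in SH. Both EE libraries were above both SH libraries, with a ratio of means of 2.98 and a log2 difference of 1.47 ± 0.21. From these 4 libraries' own spread the SE was 0.35, since limma used 1 spread common to all genes at a given level in that set. Its group means there were 27.5 ± 7.24 FPKM in EE and 9.22 ± 2.23 in SH (SD, n = 2 each). Ordered by mean, hippocampus EE came first, then hippocampus SH, cortex SH replicates 1 to 3, cortex EE replicates 4 and 5, cortex EE replicates 1 to 3, and last cortex SH replicates 4 and 5. Neighbours among the 4 groups in the middle of that order differed by less than the larger of their SDs, and since every library was scaled by itself the levels of different blocks are set side by side without a test.

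Id3, on chromosome 4 (136143497 to 136145755, plus strand), is the other Id gene that answers BMP most directly. In hippocampus it measured 105.9, 129.8 and 103.2 FPKM in EE and 115.1, 72.5 and 86.9 in SH. All 3 EE libraries exceeded the SH mean but the groups overlapped, with a log2 difference of 0.32 ± 0.18. Cortex replicates 1 to 3 measured 37.8, 43.7 and 42.1 FPKM in EE and 55.4, 42.6 and 100.6 in SH. The direction there was opposite, -0.58 ± 0.29, and without SH replicate 3 it was -0.23 ± 0.11. Cortex replicates 4 and 5 measured 41.1 and 60.7 FPKM in EE and 29.8 and 20.7 in SH, a ratio of means of 2.02 and a log2 difference of 0.98 ± 0.21 without overlap. Its SE was 0.37 from the 4 libraries' own spread. Id1 and Id3 thus took the same sign in each of the 3 blocks, which was positive in 2 of them.

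Id2, on chromosome 12 (25093799 to 25097140, minus strand), had the highest level per length of the 10 genes in every library, at 112.0 to 196.6 FPKM. It is widely used in postmitotic cortical neurons as well as in progenitors. Its group means differed little: 143.6 ± 11.6 FPKM in hippocampus EE against 149.5 ± 43.1 in SH, 148.3 ± 9.14 against 153.9 ± 14.1 in cortex replicates 1 to 3 (SD, n = 3 each), and 164.8 ± 22.6 against 157.2 ± 1.03 in replicates 4 and 5 (SD, n = 2 each). The log2 differences of -0.02 ± 0.20, -0.05 ± 0.13 and 0.06 ± 0.24 were all smaller than their SE. Id4, on chromosome 13 (48261228 to 48266026, plus strand), differs from the other Id genes in that it can oppose their action. It ranged from 20.8 FPKM in cortex SH replicate 3 to 61.7 in hippocampus SH replicate 1, with differences of -0.17 ± 0.29 in hippocampus, 0.10 ± 0.19 in cortex replicates 1 to 3 and 0.05 ± 0.21 in replicates 4 and 5. Neither gene followed Id1 and Id3 in cortex replicates 4 and 5.

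Promoter sequence from RefSeq (GRCm38.p6, the same assembly as mm10) was held for 6 of the 10 genes: Id2, Id3, Id4, Bmp4, Bmpr1a and Smad6. For the 3 Id genes among them, the stretches that hold letters known from Smad binding are shown. Each window is the 250 bases before the RefSeq start, which is base 25096092 for Id2, 136143822 for Id3 and 48261116 for Id4. The gene bounds given above are those of GENCODE, whose Id2 and Id3 genes begin 1048 and 325 bases further upstream. By GENCODE all of the Id3 window is therefore exonic, and that of Id2 has 89 intronic and 161 exonic bases, of which the intronic ones are shown. The Id4 window lies outside the GENCODE gene. The letters searched on both strands were GGCGCC, the GC-rich element that Smad1 and Smad5 prefer, and CAGAC, which Smad4 prefers. Capitals mark them, as GTCTG where CAGAC is on the opposite strand. The lines give Id2 at chr12:25096254-25096342 (minus strand), Id3 at chr4:136143643-136143671 and chr4:136143742-136143770 (plus strand) and Id4 at chr13:48260866-48261115 (plus strand).
Id2: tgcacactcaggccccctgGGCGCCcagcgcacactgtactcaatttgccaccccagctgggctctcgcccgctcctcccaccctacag
Id3, distal match: tgtcctcggcgtCAGACcagcctaaggaa
Id3, proximal match: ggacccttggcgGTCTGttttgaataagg
Id4: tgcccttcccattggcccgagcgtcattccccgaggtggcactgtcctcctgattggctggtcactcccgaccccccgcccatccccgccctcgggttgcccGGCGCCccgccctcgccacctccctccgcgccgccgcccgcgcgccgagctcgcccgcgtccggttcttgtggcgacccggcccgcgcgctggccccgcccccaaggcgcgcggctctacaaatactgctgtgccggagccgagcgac
Id2 and Id4 each had 1 GGCGCC, 231 and 148 bases before the RefSeq start, and no CAGAC. Id3 had CAGAC at 167 and 68 bases and no GGCGCC. Bmpr1a, whose RefSeq start also lies inside the GENCODE gene, had 1 GGCGCC at 198 bases, and neither motif was in the windows of Bmp4 and Smad6. GGCGCC was in 9.59% of all 32851 windows of that length and CAGAC in 42.2%, so a CAGAC is common by itself. The E-box CANNTG, the letters that E proteins bind, was found 3 times in Bmp4 and 1 time in Id2, and in 66.2% of all windows. The N-box CACNAG, which Hes1 prefers, was found 1 time in Id4 (36.7% of windows), and TGGGAA, the letters of the Notch partner Rbpj, 1 time each in Id4 and Bmpr1a (21.6%). These are matches of letters, not measured binding. Their part in the differences between housing groups was not tested, and Id1 had no sequence to compare.

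Among the ligands, Bmp4 lies on chromosome 14 (46383520 to 46390669, minus strand). In hippocampus it measured 1.86, 5.14 and 1.53 FPKM in EE and 6.001, 0.27 and 1.38 in SH. The spread within each group was wider than the difference of 0.36 ± 0.63, and without SH replicate 2 its sign turned to -0.21 ± 0.55. Cortex replicates 1 to 3 measured 4.11, 5.51 and 2.56 FPKM in EE and 6.95, 4.51 and 5.82 in SH (-0.44 ± 0.24), and in replicates 4 and 5 the difference was -0.02 ± 0.23. Bmp7, on chromosome 2 (172868012 to 172940321, minus strand), behaved alike in hippocampus, with 7.58, 17.4 and 11.6 FPKM in EE and 19.0, 2.34 and 7.16 in SH. Its difference there was 0.62 ± 0.61, which became -0.02 ± 0.45 without SH replicate 2. In cortex Bmp7 differed by 0.04 ± 0.15 (replicates 1 to 3) and by 0.30 ± 0.22 (replicates 4 and 5).

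Both ligands varied among hippocampal libraries more than between housing groups. Over the 16 libraries, taken as deviations from their block mean on the log2 scale, Bmp4 and Bmp7 had a Pearson correlation of 0.87 with each other. Bmp4 had 0.88 with the fibroblast collagen Col1a1 and 0.66 with Ttr, and Bmp7 had 0.79 and 0.56. Col1a1 measured 22.1 and 25.1 FPKM in hippocampus EE replicate 2 and SH replicate 1, the libraries where both ligands were highest, and 3.06 in SH replicate 2, where both were lowest. The summed level of the 10 choroid plexus markers, 9 of them listed in hippocampus, ran from 52.0 to 10652 FPKM in hippocampus EE and from 46.9 to 17184 in SH, and that of the 10 meningeal markers from 55.8 to 195.3 and from 37.3 to 218.3. The defining markers Ttr, Folr1, Kcnj13, Col1a1, Dcn and Foxc1 were above 0 in every hippocampal library. The part of these markers in the ligand levels was not tested. In bulk tissue, fewer cells of a type and less RNA per cell cannot be told apart. The libraries share depth, length trend and dissection, so these correlations describe the 16 libraries and carry no test.

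**Figure D2:**
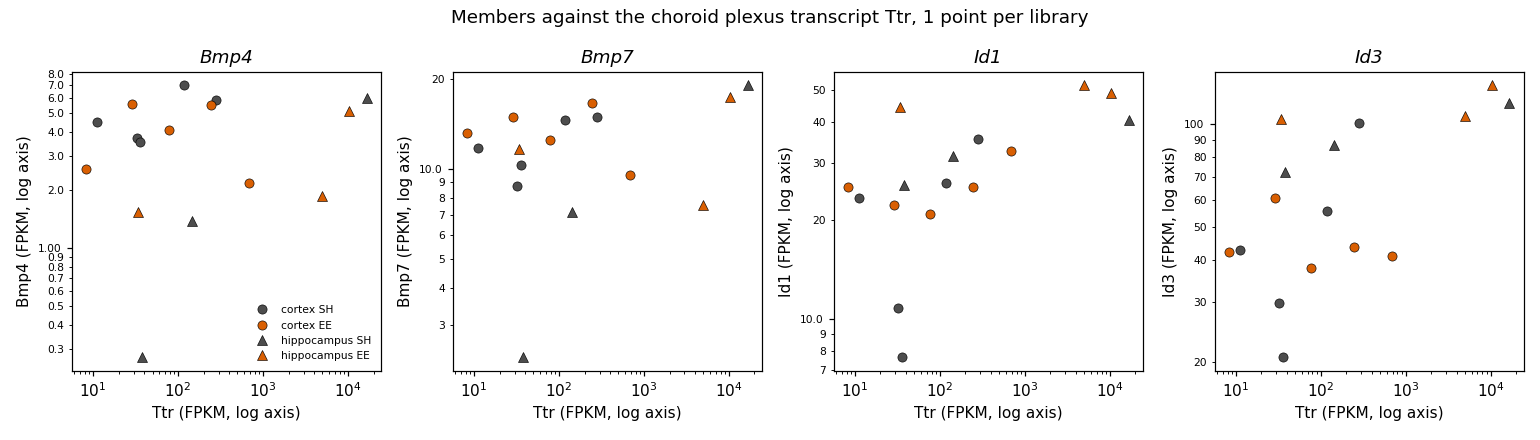
Bmp4, Bmp7, Id1 and Id3 against the choroid plexus transcript Ttr in the 16 libraries (both axes FPKM, logarithmic). Circles are cortex, triangles hippocampus, grey SH and orange EE. The lowest Bmp4 (0.27 FPKM) and Bmp7 (2.34 FPKM) belong to 1 hippocampus SH library with little Ttr, and the 2 lowest Id1 values to cortex SH.

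Bmpr1a, the type I receptor (chromosome 14, 34410734 to 34503341, minus strand), measured 13.6, 17.2 and 14.98 FPKM in hippocampus EE and 18.5, 13.6 and 20.3 in SH, a difference of -0.17 ± 0.16. Cortex replicates 1 to 3 had 16.01, 14.3 and 12.7 FPKM in EE and 14.3, 12.8 and 6.86 in SH. The difference of 0.37 ± 0.25 came mostly from the low SH replicate 3 and was 0.07 ± 0.11 without it. Cortex replicates 4 and 5 had 10.7 and 12.7 FPKM in EE and 12.02 and 16.9 in SH (-0.27 ± 0.22). Bmpr1a went against Id3 over the 16 libraries, with a correlation of -0.60. Their transcripts differ in length, 5956 bases for Bmpr1a and 1278 for Id3, and the part of the libraries' length trends in this correlation was not tested.

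The inhibitory Smads were low. Smad6 (chromosome 9, 63953076 to 64022059, minus strand), which mainly restrains BMP receptors, measured 1.37, 2.66 and 1.26 FPKM in hippocampus EE and 2.90, 1.10 and 0.94 in SH, a difference of 0.10 ± 0.32. In cortex replicates 1 to 3 its 6 libraries ran from 0.73 to 1.45 FPKM (-0.07 ± 0.17). Smad7 (chromosome 18), which restrains both the BMP and the TGF-beta branch, ran from 1.08 to 2.65 FPKM over the 16 libraries. Its differences were 0.08 ± 0.20 in hippocampus, 0.06 ± 0.12 in cortex replicates 1 to 3 and 0.01 ± 0.23 in replicates 4 and 5. In cortex replicates 4 and 5, where Smad6 was not listed, Smad7 measured 2.65 and 1.94 FPKM in EE and 2.22 and 2.26 in SH, and the groups overlapped.

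Hes1, on chromosome 16 (30064384 to 30067796, plus strand), measured 4.55, 6.59 and 6.48 FPKM in hippocampus EE and 7.10, 3.41 and 5.96 in SH (0.11 ± 0.25). Cortex replicates 1 to 3 measured 2.75, 3.00 and 3.00 in EE and 4.005, 2.66 and 5.44 in SH (-0.32 ± 0.21). Cortex replicates 4 and 5 measured 4.12 and 2.99 FPKM in EE and 2.56 and 1.88 in SH, without overlap, a difference of 0.50 ± 0.23. Over the 16 libraries Hes1 went with Id3 (correlation 0.79) and Id1 (0.72), and Id1 with Id3 (0.78). Their transcripts are the shortest of the 10, at 1160 bases for Id1, 1278 for Id3 and 1468 for Hes1, with a median of 3363 over all genes.

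**Figure D3:**
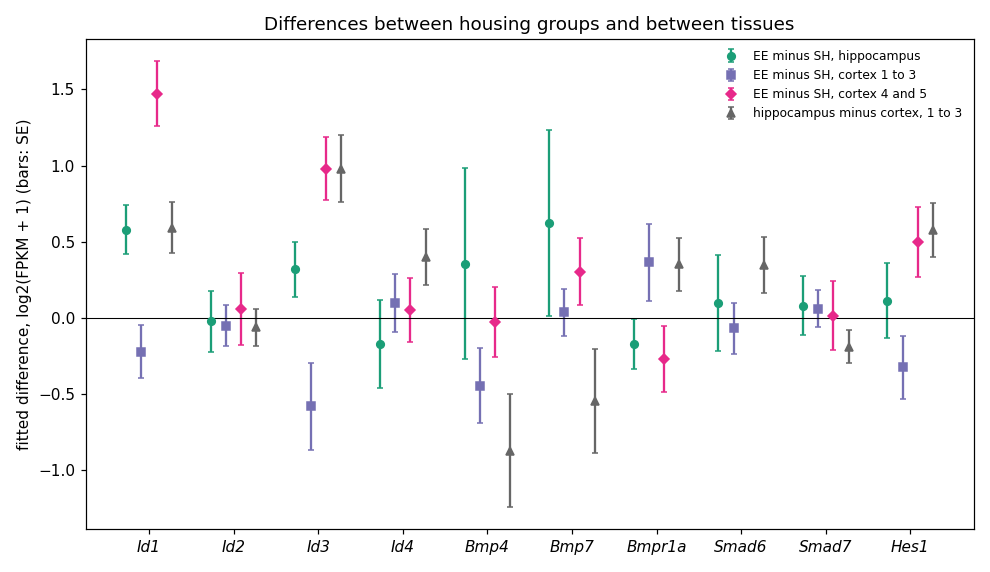
Fitted differences of the 10 genes on the log2(FPKM + 1) scale, with SE bars, for EE minus SH in hippocampus, cortex replicates 1 to 3 and cortex replicates 4 and 5, and for hippocampus minus cortex. Id1 (1.47) and Id3 (0.98) in cortex replicates 4 and 5 stand highest among the differences between EE and SH, and Bmp4 has the lowest value, -0.87 between tissues.

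Against all genes, the housing comparisons stood as follows. In hippocampus 0 of 13344 genes passed an adjusted p of 0.05 (limma, and 0 also by limma-voom, with 503 at an unadjusted p under 0.05), and 0 of the 10 genes did. Of all genes, 9.91% had groups that did not overlap and 2.59% were higher in every EE library, as Id1 was. In cortex replicates 1 to 3, 0 of 12890 genes passed (0 by limma-voom, 1197 at an unadjusted p under 0.05), and 29.9% of genes but none of the 10 had groups that did not overlap. In cortex replicates 4 and 5, 3.46% of 12576 genes passed, 1.67% as higher in EE, or 210 higher and 225 lower, and this split was 221 and 146 under quantile normalization and 114 and 244 by limma-voom. Of the 9 listed genes Id1 and Id3 passed. Nothing is read from that count, as this contrast was in view when the genes were chosen. There 46.6% of genes did not overlap and 21.7% were higher in both EE libraries, as Id1, Id3 and Hes1 were. The median difference of the 9 genes in this set was 0.06 against -0.01 over all genes. Over all 5 replicates per group 0.00798% of 12539 genes passed and none of the 9, with Id1 at 0.46 ± 0.30 and Id3 at 0.04 ± 0.32.

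The difference between tissues in the housing effect was also fitted, from libraries that the hippocampal and cortical comparisons share. It was 0.80 ± 0.25 for Id1 and 0.90 ± 0.37 for Id3 on the log2 scale, with positive values meaning a higher EE effect in hippocampus than in cortex replicates 1 to 3. No gene of 13158 passed the threshold in that fit (limma, 0%; 0 by limma-voom, 990 at an unadjusted p under 0.05). With the libraries' trends on length, GC content and level taken out, the values were 0.29 for Id1 and 0.35 for Id3.

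The length trend of the libraries did not overlap between housing groups in either cortex set, and overlapped in hippocampus. The part of the trend in the differences of Id1 and Id3 was not tested. The Spearman correlation of the trend was -0.24 and -0.36 in the EE libraries of cortex replicates 4 and 5. It was 0.46 and 0.27 in the SH libraries, where negative values mean that short transcripts were high. In cortex replicates 1 to 3 it was 0.44 to 0.64 in EE, 0.23 and 0.28 in SH replicates 1 and 2 and -0.76 in SH replicate 3, which had the highest Id1 and Id3 of its block. In hippocampus it was -0.48, 0.10 and -0.14 in EE and 0.03, 0.23 and 0.16 in SH. With the trend on length, GC content and level removed, Id1 and Id3 in cortex replicates 4 and 5 had differences of 1.23 ± 0.22 and 0.68 ± 0.20, and neither passed the all-gene threshold, as 3 genes in all did. In cortex replicates 1 to 3 the difference of Id1 turned to 0.17 ± 0.09, and in hippocampus it was 0.45 ± 0.13. Leaving out single libraries of replicates 4 and 5 also bore on the calls: Id3 was not past the threshold without SH replicate 4 (1.23 ± 0.32), and neither gene was without SH replicate 5, at 1.25 ± 0.32 for Id1 and 0.73 ± 0.33 for Id3. Hes1 passed without EE replicate 5 (0.68 ± 0.21) and Bmp7 without EE replicate 4 (0.60 ± 0.21).

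**Figure D4:**
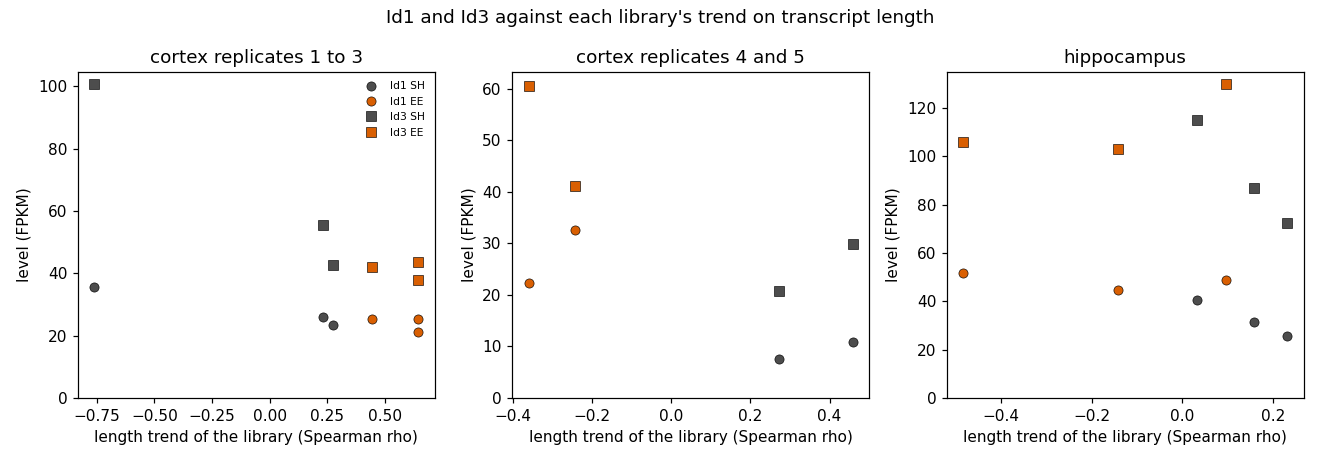
Id1 (circles) and Id3 (squares) in FPKM against the Spearman correlation of each library's gene deviations with transcript length, for the 3 blocks, SH in grey and EE in orange. In cortex replicates 4 and 5 the 2 EE libraries lie at -0.36 and -0.24 and the 2 SH libraries at 0.27 and 0.46, and in replicates 1 to 3 the highest Id3 (100.6 FPKM) lies at -0.76.

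Between tissues, hippocampus was set against cortex over replicates 1 to 3 of both housing groups, with a term for housing. Id3 had 53.7 ± 23.7 FPKM in cortex and 102.2 ± 20.3 in hippocampus (SD, n = 6 each), a log2 difference of 0.98 ± 0.22, and 6 of 6 hippocampal libraries exceeded the cortical mean. Id1 had 26.1 ± 4.96 and 40.5 ± 10.2 FPKM (0.59 ± 0.17), and Hes1 3.48 ± 1.07 and 5.68 ± 1.41 FPKM (0.58 ± 0.18), each above the cortical mean in 5 of 6. Id4 (0.40 ± 0.19), Bmpr1a (0.35 ± 0.17) and Smad6 (0.35 ± 0.18) had positive differences of about 2 SE, while Id2 (-0.06 ± 0.12) did not differ beyond its error. The ligands were lower: Bmp4 had 4.91 ± 1.53 FPKM in cortex and 2.70 ± 2.305 in hippocampus (-0.87 ± 0.37), and Bmp7 13.9 ± 1.78 and 10.9 ± 6.43 (-0.55 ± 0.34). Smad7 stood at -0.19 ± 0.11. In none of the 10 genes were the tissues free of overlap, against 20.5% of all genes. Id1, Id3 and Hes1 were 3 of 10 past the all-gene threshold, where 35.4% of 13158 genes passed and 24.6% passed as higher in hippocampus, and nothing is read from that count.

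These tissue differences depended on which libraries and scaling were used. Of all genes, 3233 passed as higher and 1428 as lower, and the split was 2289 and 2108 under median-of-ratios scaling, 2155 and 2066 under quantile normalization, 2268 and 2098 by limma-voom and 2695 and 2503 with the length, GC and level trend removed. The median over all genes was 0.09 in the reported fit and -0.01 under median-of-ratios scaling. Hes1 did not pass under either scaling (0.48 ± 0.18 and 0.38 ± 0.18), while Id1 and Id3 passed under both. Under quantile normalization Bmp4 (-1.04 ± 0.33) and Smad7 (-0.39 ± 0.11) also passed, as they did with the trend removed (-1.05 ± 0.32 and -0.40 ± 0.10). Without the 3 hippocampal libraries rich in Ttr, Bmp4 was at -1.56 ± 0.28 and passed, and Id3 (0.72 ± 0.27), Id1 (0.36 ± 0.20) and Hes1 (0.47 ± 0.23) did not pass. By limma-voom on the recovered reads Id3 passed, and Id1 (0.49 ± 0.18) and Hes1 (0.58 ± 0.23) did not. Hes1 also did not pass when cortex EE replicate 1 (0.54), cortex SH replicate 2 (0.51), hippocampus EE replicate 2 (0.52) or SH replicate 1 (0.52) was left out. Bmp4 passed without hippocampus EE replicate 2 (-1.09) or SH replicate 1 (-1.12), and Id4 passed without SH replicate 2 (0.53).

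The rest of the pathway was followed with 77 genes in 8 lists, 70 of which were listed in some library. The lists were chosen with earlier results of these data known, so their counts and p-values describe the genes and support nothing. The genes named are up to 4 per list with the smallest p. Between tissues 30 of 63 tested genes passed the limma threshold (adjusted p of 0.05 or less), 26 higher and 4 lower in hippocampus, beside the 35.4% of all genes. The median log2 difference of the 63 was 0.30 against 0.09 over all genes. The 26 and this median include Wnt8b and Lmx1a, which reached the filter's mean FPKM only through hippocampus, and nothing is read from the counts. All 30 kept their direction under both scalings, under each of which 26 of them stayed past the threshold, and without the Ttr-rich libraries 19 of them did. Of the genes named here, Acvr1, Bmp3, Neo1, Rbpj, Nrarp and Tcf12 were among those that did not pass without the Ttr-rich libraries, and Nrarp (0.29 ± 0.11) did not pass by limma-voom.

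Of 7 tested ligands outside the 10 genes, 3 rose and 2 fell in hippocampus. Gdf10, a TGF-beta family ligand, measured 16.4 to 23.2 FPKM in the 6 hippocampal libraries and 4.89 to 7.59 in the 6 cortical ones, a log2 difference of 1.57 ± 0.11 (limma, adjusted p = 1.7e-06). Gdf5 (0.90 ± 0.13) and the activin subunit gene Inhbb (0.67 ± 0.14) also rose, and Bmp3 (-0.36 ± 0.11) fell. Of 10 other receptor genes 2 rose, the type I receptor Acvr1 (0.52 ± 0.12) and the co-receptor Neo1 (0.57 ± 0.20). The call on Neo1 was lost under median-of-ratios scaling (0.46 ± 0.19), by limma-voom (0.47 ± 0.19), and when cortex EE replicate 3 (0.58), cortex SH replicate 1 (0.60), or hippocampus EE replicate 2 (0.60), SH replicate 2 (0.44) or SH replicate 3 (0.56) was left out. Bmp3 did not pass without cortex EE replicate 2 (-0.33), cortex SH replicate 2 (-0.32) or hippocampus EE replicate 1 (-0.31). Among 3 tested Smads the BMP effector Smad5 (0.65 ± 0.11) and the shared partner Smad4 (0.53 ± 0.13) rose.

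Antagonists and other extracellular modulators went both ways, with 5 of 15 higher and 1 lower. The secreted antagonist Nbl1 fell, at -1.10 ± 0.22, with 14.6 ± 5.13 FPKM in hippocampus and 32.1 ± 9.76 in cortex (SD, n = 6 libraries each). Bmper (0.64 ± 0.11), a modulator that can promote or restrain BMPs, and the protease gene Bmp1 (0.47 ± 0.07), whose product cleaves the antagonist chordin, rose, as did the chordin gene Chrd itself (0.48 ± 0.12). The call on Chrd was lost under quantile normalization (0.26 ± 0.15) and with the length, GC and level trend removed (0.25 ± 0.15). Of 7 other targets 4 rose, Wnt8b and Lmx1a included, and 1 fell. Wnt8b, a marker of the cortical hem and hippocampal primordium, measured 4.25 to 11.7 FPKM in hippocampus and 0 to 0.22 in cortex (2.77 ± 0.19). Lmx1a (2.22 ± 0.26), a roof plate and hem gene, and Atoh8 (0.83 ± 0.14) rose, and Dlx5 (-1.16 ± 0.11), a gene of ventral interneuron lineages, fell. Lmx1a measured 0.10 to 0.38 FPKM in cortex. Wnt8b and Lmx1a reached the filter's mean FPKM of 1 only through hippocampus, and nothing is read from their calls or from the counts that hold them.

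The partners of Id proteins also differed between tissues: 3 of 3 E protein genes rose in hippocampus, Tcf4 by 1.16 ± 0.19, Tcf3 by 0.70 ± 0.07 and Tcf12 by 0.69 ± 0.17 on the log2 scale. Of 9 Notch genes 6 rose, among them the receptors Notch1 (1.37 ± 0.17) and Notch2 (1.45 ± 0.25), their nuclear partner Rbpj (0.55 ± 0.11) and the feedback target Nrarp (0.39 ± 0.10). In the TGF-beta branch 1 of 9 passed, Tgfb2 (1.53 ± 0.13). Radial glial and astrocyte markers moved with these genes, 8 of 11 higher and 1 lower in hippocampus, with summed levels of 1307 to 2111 FPKM in hippocampus and 1118 to 1844 in cortex. Of 10 meningeal markers 5 were lower and none higher, as Bmp4 and Bmp7 were on average. The part of these cell types in the tissue differences was not tested.

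**Figure D5:**
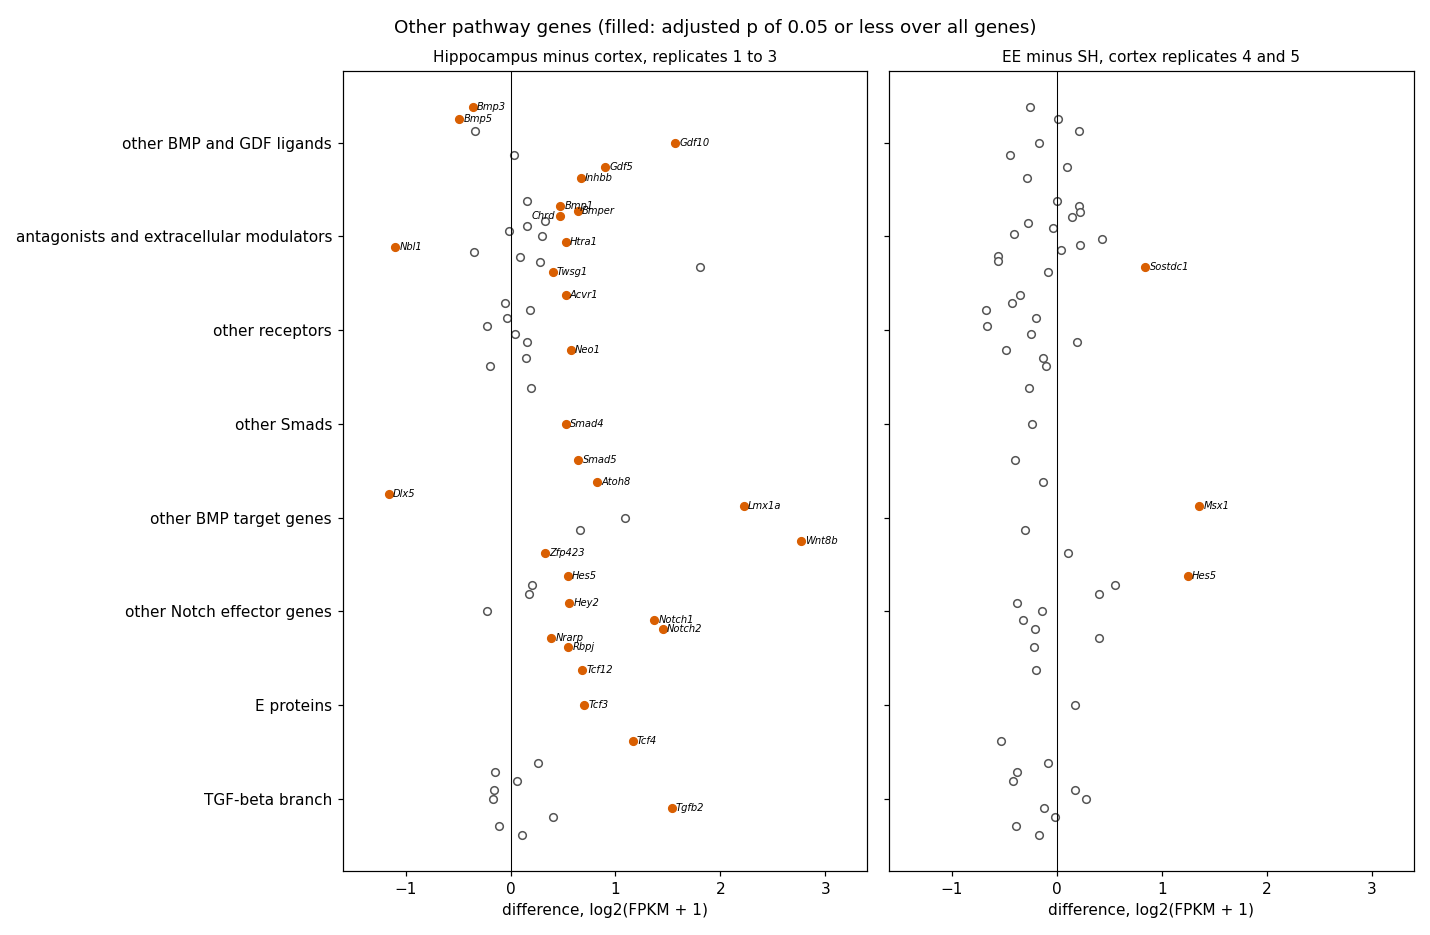
Log2 differences of the other pathway genes by list, between hippocampus and cortex (left) and between EE and SH in cortex replicates 4 and 5 (right). Each point is a gene, filled and named where its adjusted p was 0.05 or less (limma, all genes). On the left 26 genes are filled on the positive side and 4 on the negative, and on the right 3 are filled, all positive. The 26 include Wnt8b and Lmx1a, which reached the filter only through hippocampus. All 33 filled points kept their direction under median-of-ratios scaling and quantile normalization.

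Between EE and SH, 0 of 63 of these genes passed in hippocampus, 0 of 60 in cortex replicates 1 to 3 and 3 of 59 in replicates 4 and 5, where 3.46% of all genes passed. The 3 were higher in EE. Their p-values are a description, as the lists were chosen with earlier results of these data known. As for Id1, limma used 1 spread common to all genes at a given level in that set. Msx1, a homeobox target of BMPs, measured 4.98 and 5.63 FPKM in EE and 1.12 and 1.85 in SH, a log2 difference of 1.36 ± 0.23 (limma, adjusted p = 1.8e-06). Hes5, a Notch effector, measured 13.1 and 10.97 in EE and 5.75 and 3.41 in SH (1.25 ± 0.23, limma, adjusted p = 1.5e-05). Sostdc1, a BMP and Wnt antagonist, measured 4.85 and 2.17 in EE and 1.73 and 1.11 in SH (0.84 ± 0.23, limma, adjusted p = 0.012). None of the 3 passed with the length, GC and level trend removed. With 1 SH library left out, Msx1 did not pass without replicate 4 (1.14 ± 0.35), Hes5 not without replicate 5 (0.94 ± 0.34) and Sostdc1 with neither (1.03 and 0.66), nor without EE replicate 4 (0.40 ± 0.21) or by limma-voom. The sign in cortex replicates 1 to 3 was opposite for Msx1 (-0.45 ± 0.27) and Hes5 (-0.54 ± 0.25). In hippocampus Msx1 and Sostdc1 were highest in the 3 libraries rich in Ttr, at 10.7, 25.3 and 32.1 FPKM for Msx1 and 19.2, 53.6 and 70.4 for Sostdc1, against at most 6.38 and 2.84 in the other 3.

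In cortex replicates 4 and 5, 9 of the 10 other receptors had a negative difference and none passed, with a median of -0.30 against -0.01 over all genes, and Bmpr1b at -0.67 ± 0.22 and Acvr2b at -0.68 ± 0.23. In replicates 1 to 3 the same list had 8 positive differences and a median of 0.31, led by Bmpr2 (0.71 ± 0.28) and Neo1 (0.64 ± 0.27), and none passed. The transcripts of these receptors ran from 3175 to 12899 bases, with a median of 3363 over all genes. The part of the libraries' length trends in these signs was not tested. Of the cell type markers, Ttr, Clic6, Cldn5 and C1qa passed as higher in EE in replicates 4 and 5. Ttr measured 689.3 and 28.9 FPKM in EE and 32.5 and 35.8 in SH, so 1 EE library carried it, and the difference was -0.23 ± 0.20 without that library. Ttr and Clic6 are choroid plexus markers, Cldn5 was the 1 of 8 endothelial markers that passed, with 6 of the 8 negative (Cdh5 -0.06 ± 0.22), and C1qa the 1 of 5 microglial ones. With the trend removed none of these 4 calls held (Ttr 1.73 ± 0.85, Clic6 1.05 ± 0.32, Cldn5 0.43 ± 0.20, C1qa 0.37 ± 0.20). Those on Cldn5 and C1qa were also lost without EE replicate 5 (0.53 and 0.46), SH replicate 4 (0.79 and 0.74) or SH replicate 5 (0.84 and 0.76), that on Clic6 without either SH library (0.84 and 1.08), and that on C1qa by limma-voom (0.80 ± 0.26). The summed choroid plexus list was 50.1 and 716.5 FPKM in EE and 46.7 and 50.7 in SH with 6 of 10 markers listed, the endothelial list 85.7 and 120.03 against 77.5 and 82.1, and the microglial list 49.2 and 75.8 against 44.9 and 47.7. Radial glial sums were 973.7 and 1417 FPKM (EE replicates 4 and 5) against 969.2 and 1062 (SH). Of the 11 markers 7 were positive and none passed. All 9 mural markers and 3 of 4 tested hippocampal ones were negative, and none passed. In cortex replicates 1 to 3 every radial glial sum in EE (at most 1275 FPKM) was below every SH sum (at least 1329). Id1, Id3 and Hes1 also had lower EE means there, while 6 of the 11 markers were positive. The part of these cell type markers in the differences of Id1 and Id3 was not tested. In cortex replicates 4 and 5, Id1 was 32.6 FPKM in the EE library with high Ttr and 22.4 in the other EE library, both above SH. Without the Ttr-rich EE replicate 4, the difference of Id1 was 1.21 ± 0.20 and that of Id3 1.25 ± 0.20. That fit leaves 1 EE library, replicate 5, which had the highest endothelial, microglial and radial glial sums of the 4 libraries. It therefore cannot tell markers and housing apart.

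The genes whose levels followed each Id gene most closely were ranked over the 16 libraries as deviations from block means, among 12672 genes. For Id1 they were Anxa7 (Pearson correlation 0.96), Prkra (0.92) and Rmdn1 (0.92). For Id3 they were Ech1 (0.96), A930005H10Rik (0.95) and Ict1 (0.95), and for Id4 Mertk (0.95), Atp7b (0.94) and Pdk4 (0.94). Id2 had less close neighbours, Cbs (0.88), Arg2 (0.80) and Nts (0.80), and its correlation with Id1 was 0.06. All points share the libraries' depth and length trend, so these ranks are a description.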

How the data were processed

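Per the labels, Trizol was used for RNA and a NEBNext Ultra kit for the libraries. The authors deposited 1 table of FPKM values per library. Tools listed without roles, per the submitters' processing notes, are StringTie 1.3.4d, HISAT2 2.0.4, cutadapt 1.9, DESeq2 and edgeR, with the build mm10. The annotation and the filter behind the unequal gene lists are not given in the sources used here. A gene missing from a table was treated as missing, not as 0.

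The 10 genes, all lists and all tests were chosen with earlier results of these data known. From the deposited FPKM, two-sided limma 3.58.1 fits (R 4.3.3, lmFit and eBayes with trend) were run on log2(FPKM + 1), over genes with a mean FPKM of 1 or more that every library compared lists. The p-values were Benjamini-Hochberg adjusted over all of them, with a threshold of 0.05. Differences are on this scale, which understates changes of low genes. Named genes outside the 10 were up to 4 per list past the threshold with the smallest p, otherwise up to 2. Signs of Msx1 and Hes5 in the other blocks, and Msx1 and Sostdc1 in hippocampus, were looked up after their values were seen.

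Whole reads were recovered from the FPKM steps for 99.9% of genes per block (tolerance 0.003 reads), holding 87.6 to 91.8% of summed FPKM, up to a common factor. limma-voom on them, with median-of-ratios library sizes, called 4366 genes between tissues, 358 in cortex replicates 4 and 5, 1 over all cortex replicates and 0 in the other fits. The fits and the recovery were tested on simulated data. Lengths and positions came from GENCODE M21 (93.3% of symbols matched). One ambiguous symbol was dropped. Alternatives were other scalings, filters and pseudocounts (0.1), a replicate block and the omission of each library in turn. Chosen after seeing the data were limma-voom, removal of length, GC and level trends, and omission of libraries rich in Ttr. One pathway gene and 1 marker of the lists are not reported here.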

Additional observations from a re-analysis of the deposited data

Results flagged for a closer look

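In groups of 5 cortex libraries, 18 groups of the 9 genes listed throughout were examined for a library far from the rest, and 3 had one. A rule of this kind marks about 1 group in 20 by chance. Id3 stood at 60.7 FPKM in cortex EE replicate 5, with 37.8 to 43.7 in the other 4 EE libraries. Id4 stood at 22.1 FPKM in the same library, with 29.2 to 31.7 in the others. Hes1 stood at 4.12 FPKM in cortex EE replicate 4, with 2.75 to 3.00 in the others. The groups span 2 sets of replicates whose tables were made with different gene lists.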

How the results depend on the processing

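Counts of genes past the threshold moved by over 1.5 times as follows. Between tissues the 4661 genes became 2744 at a mean FPKM of at least 5, where fewer genes were tested, and 2131 without the 3 Ttr-rich libraries. In hippocampus 0 became 8 without those 3, which leaves 1 EE library against 2 SH, the lone one assumed to vary like the others. In cortex replicates 1 to 3, leaving out 1 library gave 0 to 12 genes, with 12 without SH replicate 3. In cortex replicates 4 and 5 the 435 genes became 3 with the length, GC and level trend removed and 23 to 1873 with 1 library left out (EE replicate 4, 997; EE replicate 5, 1873; SH replicate 4, 33; SH replicate 5, 23). Over all cortex replicates 1 gene became 3 under quantile normalization, 0 without a term for the set and 5 with the trend removed. With 1 library left out the count there was 1 to 3, with 3 without SH replicate 3. The cause of these changes was not tested.

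With the replicate number as a block the counts were 4357 between tissues, 0 in hippocampus, 0 in cortex replicates 1 to 3, 766 in replicates 4 and 5, 1 over all cortex and 0 for the difference of effects. Whether the numbers mark pairs of libraries was not tested, and with 2 or 3 libraries per group the correlations cannot decide it. Same-numbered EE and SH libraries correlated at -0.10, -0.56 and 0.44 in hippocampus, where differently numbered ones lay between -0.54 and 0.67. The same-numbered values were 0.37, 0.07 and 0.38 in cortex replicates 1 to 3, with the differently numbered ones between -0.42 and 0.22. Replicates 4 and 5 gave 0.14 for the same number and -0.14 for different numbers. Same-numbered cortex and hippocampus libraries correlated at -0.03, 0.22 and 0.22 in EE and 0.08, 0.28 and 0.02 in SH. Differently numbered libraries of the 2 tissues were not compared. With the block Bmp4 passed between tissues (-0.87 ± 0.26).

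Of 1025 refits of the 10 genes' differences, 1007 moved by less than 1 SD, 18 by more, and 76 had the other sign, all of differences that had not passed the threshold. In 27 a gene crossed the threshold, 20 between tissues and 7 in cortex replicates 4 and 5. Groups of 2 or 3 libraries, and 12 reads in the lowest Bmp4 library, limit the precision.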
